A study of Mus musculus with 9 samples.

Results

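The 7 CC chemokine genes Ccl3, Ccl4, Ccl5, Ccl6, Ccl9, Ccl17 and Ccl22 were followed through cultures of RAW 264.7 cells, a transformed mouse line with macrophage properties. They were chosen by gene symbol, with no threshold on their values but with earlier results of these data known, and 7 of 7 were found among the 51826 genes counted. The monocyte chemoattractants of the Ccl2 group and the CXC chemokines are not among them. Polyadenylated RNA was sequenced from 3 groups of 3 cultures, which the labels call biological replicates. The calycosin plus LPS group was given calycosin, an isoflavone of Astragalus root, at 100 µg/mL for 24 h, and then lipopolysaccharide (LPS) at 300 ng/mL for 6 h. The LPS group had the same LPS exposure without calycosin, and the vehicle group had solvent alone. All cultures belong to a single established cell line, no group received calycosin without LPS, and a 24 h solvent pretreatment of the LPS group is not given in the sources used here. The study set out to measure how calycosin acts on inflammation in macrophages, which the contrast between calycosin plus LPS cells and LPS cells addresses.

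CC chemokines are small secreted proteins that attract leukocytes by binding G protein-coupled receptors on them and proteoglycans on cell surfaces and matrix. Macrophages that sense LPS through the receptor TLR4 switch on many chemokine genes through NF-kappaB and IRF factors and, by way of secreted type I interferon, through STAT factors. Ccl3 and Ccl5 are ligands of Ccr1, Ccl5 also of Ccr3, and together with Ccl4 they draw in monocytes and activated T cells. Ccl6 and Ccl9 are Ccr1 ligands described in rodents, and Ccl17 and Ccl22 are the ligands of Ccr4, found on regulatory and type 2 helper T cells.

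In GENCODE M21 on GRCm38 the genes lie in 2 places. Ccl5 (ENSMUSG00000035042, chr11:83525778-83530518, minus strand), Ccl9 (ENSMUSG00000019122, chr11:83572919-83578636, minus strand), Ccl6 (ENSMUSG00000018927, chr11:83587882-83593087, minus strand), Ccl3 (ENSMUSG00000000982, chr11:83647844-83649355, minus strand) and Ccl4 (ENSMUSG00000018930, chr11:83662584-83664683, plus strand) span 139 kb of chromosome 11. Ccl22 (ENSMUSG00000031779, chr8:94745590-94751699, plus strand) and Ccl17 (ENSMUSG00000031780, chr8:94810453-94812036, plus strand) are 58.8 kb apart on chromosome 8. Ccl6 lies within the bounds of the long noncoding gene E230016K23Rik, which is transcribed from the opposite strand. Since the strandedness of the counting is not given in the sources used here, reads of this pair cannot be told apart with certainty.

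RefSeq start-site windows of 300 bases (GRCm38.p6, 250 bases before the start and 50 after it) were held for 5 of the 7 genes. The bases before the start are shown for 4 of them, because Ccl22 moved in the opposite direction to the others with calycosin, Ccl9 gave the fall with the smallest SE, Ccl3 was the most abundant, and Ccl17 is the neighbour and fellow Ccr4 ligand of Ccl22. They run 5′ to 3′ on the gene's strand, stop before the first base that GENCODE M21 gives to an exon, and carry in capitals the motif matches named after them. The regions are chr11:83649379-83649628 (minus strand) for Ccl3, chr11:83578637-83578886 (minus strand) for Ccl9, chr8:94810203-94810452 (plus strand) for Ccl17 and chr8:94745434-94745589 (plus strand) for Ccl22.
Ccl3: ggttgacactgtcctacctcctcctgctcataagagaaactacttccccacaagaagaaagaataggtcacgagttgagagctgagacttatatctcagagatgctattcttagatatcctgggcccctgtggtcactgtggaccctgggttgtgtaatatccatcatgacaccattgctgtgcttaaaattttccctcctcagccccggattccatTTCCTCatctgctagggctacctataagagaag
Ccl9: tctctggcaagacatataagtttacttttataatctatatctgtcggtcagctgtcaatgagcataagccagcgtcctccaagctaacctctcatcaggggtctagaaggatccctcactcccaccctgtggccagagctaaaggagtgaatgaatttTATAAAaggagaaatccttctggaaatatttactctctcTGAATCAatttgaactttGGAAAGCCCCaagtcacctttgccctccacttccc
Ccl17: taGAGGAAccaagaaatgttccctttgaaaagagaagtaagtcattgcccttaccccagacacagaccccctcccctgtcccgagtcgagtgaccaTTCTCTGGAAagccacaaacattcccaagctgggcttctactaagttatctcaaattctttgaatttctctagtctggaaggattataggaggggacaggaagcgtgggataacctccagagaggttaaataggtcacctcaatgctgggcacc
Ccl22: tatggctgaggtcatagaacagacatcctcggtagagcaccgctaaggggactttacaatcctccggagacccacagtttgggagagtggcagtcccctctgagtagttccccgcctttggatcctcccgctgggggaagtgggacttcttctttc

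6 short motifs were searched in the 300-base windows on both strands, except the TATA box (TATAAA), which was searched on the gene's strand. Ccl9 had a match to the 10-letter NF-kappaB consensus, GGAAAGCCCC, at -35 to -26 from the RefSeq start, an AP-1 match (TGANTCA) at -53 to -47 and a TATA box at -92 to -87. Ccl3 had the PU.1 core (GAGGAA, here in reverse complement) at -33 to -28, and Ccl17 had it at -248 to -243. Ccl17 also held the palindrome spacing bound by STAT6, the factor activated by interleukin 4, at -154 to -145. No motif searched matched the windows of Ccl22 or Ccl6, and the interferon response element matched none of the 5 windows. No 2 matches overlapped. Among all 32817 RefSeq windows of the same length, 8.46% held the NF-kappaB consensus, 7.81% the AP-1 letters, 6.94% the STAT6 spacing, 8.32% the TATA box, 28.3% the PU.1 core and 3.43% the interferon element. The matches describe these letters only.

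A calycosin plus LPS library held 33925342 to 38524105 counts, an LPS library 27784737 to 31038241 and a vehicle library 31285425 to 35138718, and 14458 genes had enough counts to be tested. The mitochondrially encoded share of counts was 17.2%, 7.45% and 19.4% in calycosin plus LPS replicates 1, 2 and 3, ranged between 13.0% and 14.7% in LPS cells, and was 3.79%, 3.68% and 21.9% in vehicle replicates 1, 2 and 3. Calycosin plus LPS replicate 2 and vehicle replicate 3 thus stood apart from their groups. Of 8 macrophage markers 7 passed the filter and Mertk was near 0. The summed macrophage markers were at 3380 to 3962 CPM in calycosin plus LPS cells, 4638 to 4830 CPM in LPS cells and 4594 to 4999 CPM in vehicle cells. Of 20 markers of other cell types 10 had no counts in any library, among them Ms4a1 and Ly6g. The sum over the 20 was 1.74 to 2.35 CPM in calycosin plus LPS cells, 4.94 to 6.60 CPM in LPS cells and 1.43 to 1.61 CPM in vehicle cells. In LPS cells most of this sum came from Cdh5, and the part of these markers in the chemokine results was not tested. Levels are in CPM, counts scaled to a common effective library size, unless TPM, which is also per transcript length, is named.

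With LPS the 6 genes that passed the filter on low counts were all higher than in vehicle cells, and with calycosin before LPS 5 of these 6 were lower than with LPS alone, while Ccl22 was higher. The count of 5 rested on the fit with all libraries: leaving out single libraries gave 2 to 5 genes lower, with 2 without calycosin plus LPS replicate 1 or without LPS replicate 1 or 2, 3 without calycosin plus LPS replicate 2 or 3 or LPS replicate 3, and limma on the TPM gave 2. By edgeR's quasi-likelihood test at an adjusted p below 0.05, 27.3% of the genes tested were higher with LPS (56.3% differed in either direction). In calycosin plus LPS cells against LPS cells 12.9% of the genes tested were lower and 16.1% higher (29.1% in either direction). With limma on log2(TPM + 1) the same comparison gave 1345 genes higher and 286 lower, and LPS against vehicle gave 1342 higher and 6432 lower, against 3954 and 4180 in edgeR. The median log2 fold change of the 6 genes was 5.48 for LPS over vehicle, against -0.07 over all genes tested, and -1.27 for calycosin plus LPS over LPS, against 0.02 over all genes tested. Against vehicle cells, the calycosin plus LPS cells had all 6 genes at a higher level, and 25.4% of the genes tested were higher in that comparison (49% differed in either direction). Of these calls that of Ccl6 was lost without calycosin plus LPS replicate 1 (edgeR adjusted p = 0.0680) or 3 (0.106) and without vehicle replicate 1 (0.0977) or 2 (0.112). Ccl17 had too few counts to be tested, and Ccl5, Ccl6 and Ccl22 passed the filter through groups in which they were high, so the counts of 6 are descriptions. The 3 comparisons share their control libraries. In RNA from whole cultures, fewer cells expressing a gene and less RNA per cell cannot be told apart.

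**Figure D1:**
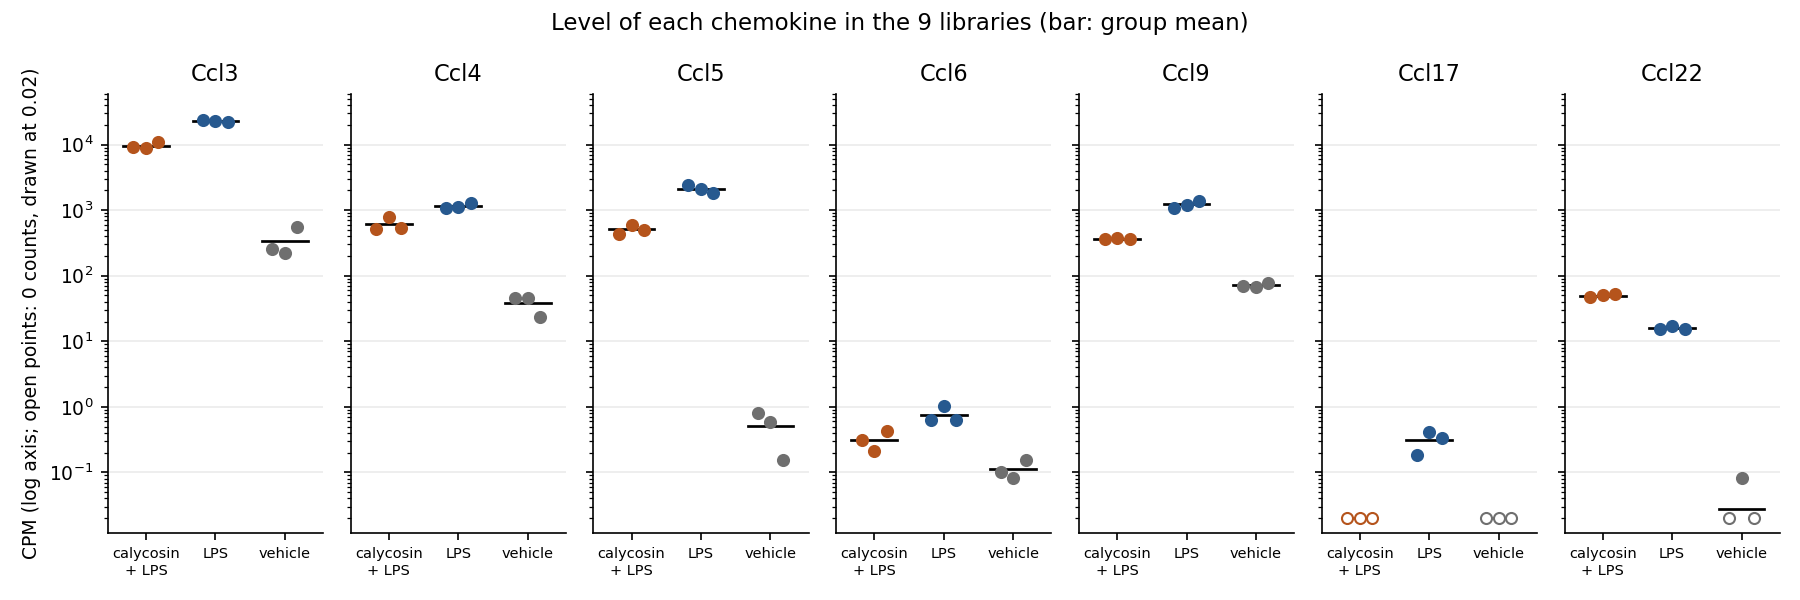
Level of each of the 7 chemokine genes in CPM on a log axis, with a point for each of the 3 libraries of a group and a bar for the group mean. Open points have 0 counts and are drawn near the bottom of the axis. Ccl3, Ccl4, Ccl5, Ccl6 and Ccl9 are each highest in LPS cells, Ccl22 is highest in calycosin plus LPS cells, and Ccl17 has counts in LPS cells only.

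Ccl3, also called MIP-1 alpha, was the most abundant of the genes per length in all 3 groups. It had 9074, 8765 and 10881 CPM in the calycosin plus LPS libraries, 23779.8, 22890.1 and 21801 CPM in the LPS libraries, and 251, 221 and 559 CPM in the vehicle libraries. No library of a group reached into another group, and vehicle replicate 3, one of the 2 libraries that stood apart, was the highest of the vehicle libraries. In edgeR Ccl3 was 66.4-fold higher with LPS than with vehicle (log2 fold change 6.05, SE 0.41, adjusted p = 1.47e-06), and limma on log2(TPM + 1) gave 5.40 (adjusted p = 3.92e-07). With calycosin before LPS it was 2.38-fold lower than with LPS alone (log2 fold change -1.25, SE 0.33, 95% interval -2.00 to -0.51, adjusted p = 0.0198). Ccl3 alone took 0.854%, 0.970% and 0.975% of all counts in the calycosin plus LPS libraries, against 1.77% to 1.88% in the LPS libraries. The call for the fall was lost without calycosin plus LPS replicate 1 (edgeR adjusted p = 0.0695) or 2 (0.0660) and without LPS replicate 1 (0.0574) or 2 (0.0539). Without both libraries that stood apart it was kept, at a log2 fold change of -1.17 (edgeR adjusted p = 2.85e-04).

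Ccl4, also called MIP-1 beta, is a neighbour of Ccl3 at a distance of 13.2 kb. Its level was 509, 797 and 529 CPM in the calycosin plus LPS libraries, 1068, 1109 and 1275 CPM in the LPS libraries, and 46.0, 45.6 and 23.5 CPM in the vehicle libraries. The groups did not overlap in CPM, calycosin plus LPS replicate 2 was the closest of its group to the LPS libraries, and vehicle replicate 3 was the lowest of its group. Ccl4 rose 29.97-fold with LPS over vehicle (edgeR log2 fold change 4.91, SE 0.31, adjusted p = 9.40e-07), and limma on log2(TPM + 1) gave 4.18 (adjusted p = 6.63e-05). With calycosin before LPS it was 1.88-fold lower than with LPS alone (log2 fold change -0.91, SE 0.27, 95% interval -1.51 to -0.32, edgeR adjusted p = 0.0288). On the deposited TPM scale calycosin plus LPS replicate 2 had 2528 TPM and lay inside the LPS range of 2099 to 2641 TPM, while replicates 1 and 3 had 1200 and 1122 TPM. Limma on log2(TPM + 1) gave no call for this gene (log2 difference -0.61, adjusted p = 0.421). The edgeR call was also lost without calycosin plus LPS replicate 1 (adjusted p = 0.105) or 3 (0.0990) and without any 1 of the 3 LPS libraries (0.0597 to 0.0858). Without both libraries that stood apart the log2 fold change was -1.13 (edgeR adjusted p = 1.60e-04).

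Ccl5, also called RANTES, was almost silent in vehicle cells and abundant after LPS. It was at 437, 599 and 505 CPM in the calycosin plus LPS libraries, 2376, 2126 and 1809 CPM in the LPS libraries, and 0.803, 0.596 and 0.152 CPM in the vehicle libraries, where it rested on 40, 29 and 5 counts. All libraries of each group were clear of the other groups, and in vehicle replicate 3 Ccl5 was close to the floor of 3 counts. Its edgeR log2 fold change for LPS over vehicle was 11.91 (SE 0.48, adjusted p = 4.46e-08), and limma on log2(TPM + 1) gave 10.76 (adjusted p = 4.19e-08). With calycosin before LPS it was 4.09-fold lower than with LPS alone (log2 fold change -2.03, SE 0.31, 95% interval -2.72 to -1.34, edgeR adjusted p = 0.00138). Calycosin plus LPS cells still held 940-fold more Ccl5 than vehicle cells (edgeR log2 fold change 9.88, SE 0.45, adjusted p = 1.48e-07). In limma on log2(TPM + 0.1) the fall was -1.72 and missed the threshold (adjusted p = 0.116), and no omission of a single library ended the edgeR call.

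Among the rodent Ccr1 ligands, Ccl9, also called MIP-1 gamma, was well expressed and Ccl6 almost silent. Ccl9 had 366, 379 and 361 CPM in the calycosin plus LPS libraries, 1095, 1177 and 1395 CPM in the LPS libraries, and 69.5, 67.4 and 76.4 CPM in the vehicle libraries. In CPM the calycosin plus LPS libraries were close together at a level between those of the other groups, with no overlap. The library of that group with the lowest mitochondrial share, replicate 2, did not stand out in CPM. On the deposited TPM scale it had 265 TPM, against 190 and 168 TPM in replicates 1 and 3. Ccl9 rose 17.2-fold with LPS over vehicle (edgeR log2 fold change 4.10, SE 0.14, adjusted p = 1.65e-08). Limma on log2(TPM + 1) gave 3.29 for this rise (adjusted p = 4.78e-06). With calycosin before LPS it fell by 1.73 on the log2 scale relative to LPS alone, or 3.32-fold (SE 0.13, 95% interval -2.01 to -1.44, edgeR adjusted p = 5.48e-05). That call held in all 20 alternatives run, of which limma on log2(TPM + 1) gave -1.40 (adjusted p = 0.00872). Leaving out single libraries gave values between -1.80 and -1.62. Of the 2996 stretches of 50 bases in Ccl9 transcripts 59 (1.97%) also occur, on either strand, in transcripts of up to 467 other genes. None of those genes is among the 7, and the other 6 genes share no such stretch.

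Ccl6 had 10, 9 and 13 counts in the calycosin plus LPS libraries, 14, 25 and 15 in the LPS libraries, and 5, 4 and 5 in the vehicle libraries. In CPM these were 0.313, 0.211 and 0.421 with calycosin plus LPS, 0.637, 1.03 and 0.623 with LPS, and 0.1004, 0.0822 and 0.152 with vehicle. The groups did not overlap, but no library exceeded 1.03 CPM. Ccl6 was 6.83-fold higher with LPS than with vehicle (edgeR log2 fold change 2.77, SE 0.47, adjusted p = 6.96e-04). Limma on log2(TPM + 1) without a filter gave 0.69 (adjusted p = 0.0112), on a scale that understates changes of low genes. The fall with calycosin relative to LPS alone was -1.29 on the log2 scale (SE 0.42, 95% interval -2.23 to -0.34, edgeR adjusted p = 0.0466). It passed the threshold narrowly and was lost on leaving out any single library other than vehicle replicate 3 (edgeR adjusted p 0.0636 to 0.182), and also without both libraries that stood apart (-1.03, adjusted p = 0.111). The gene that encloses it, E230016K23Rik, averaged 0.347 ± 0.294 CPM in calycosin plus LPS cells, 0.562 ± 0.224 CPM in LPS cells and 0.163 ± 0.0733 CPM in vehicle cells (SD, n = 3 each).

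Of the Ccr4 ligands, Ccl22, also called macrophage-derived chemokine, was the one gene of the 6 tested that was higher with calycosin plus LPS than with LPS. It had 47.3, 49.9 and 52.3 CPM in the calycosin plus LPS libraries, 15.5, 17.1 and 15.6 CPM in the LPS libraries, and 0, 0.0822 and 0 CPM in the vehicle libraries. The calycosin plus LPS libraries were all above the LPS libraries, and vehicle cells gave 4 counts, all in replicate 2. Relative to LPS alone Ccl22 rose 3.10-fold with calycosin (log2 fold change 1.63, SE 0.24, 95% interval 1.09 to 2.18, edgeR adjusted p = 0.00127). Leaving out single libraries gave values between 1.60 and 1.68, and the call held in all 20 alternatives run. LPS over vehicle was called higher as well (edgeR adjusted p = 1.57e-07), with 16.1 ± 0.859 CPM in LPS cells and a vehicle mean of 0.0274 CPM, which is under the floor of 3 counts and gives no fold.

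Ccl17, also called TARC, had 0 counts in all calycosin plus LPS and all vehicle libraries, and 4, 10 and 8 counts (0.182, 0.410 and 0.332 CPM) in the LPS libraries. It was thus detected with LPS alone and in no library of the other groups, at a very low level. Its mean in LPS cells, 0.308 CPM, was 3.54-fold the mean floor of 3 counts per library in calycosin plus LPS cells. The same mean was 4.34-fold the mean floor in vehicle cells. Both ratios leave out the counting error of the LPS libraries. When every gene with counts was tested, the edgeR adjusted p for Ccl17 was 0.0199 for calycosin plus LPS against LPS and 0.00697 for LPS against vehicle. Ccl17 entered that fit through its counts in the LPS libraries alone, so these p values are descriptions and lend no support. In mean CPM, Ccl17 was lower and Ccl22 higher in calycosin plus LPS cells than in LPS cells.

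**Figure D2:**
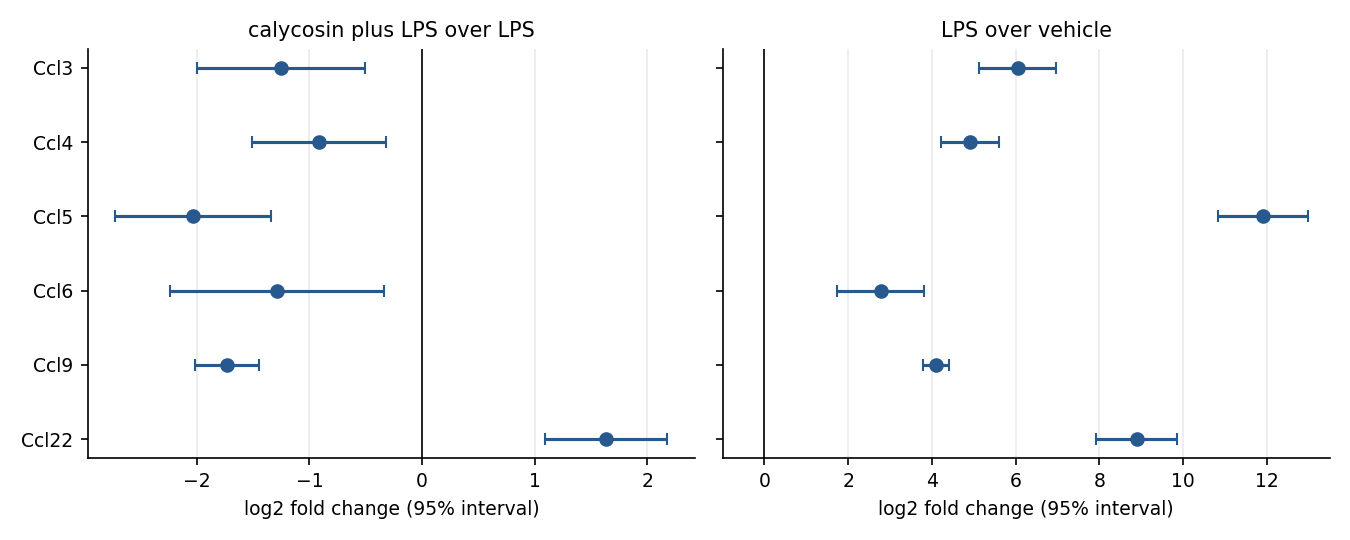
Fitted log2 fold change with its 95% interval for the 6 genes tested, calycosin plus LPS over LPS on the left and LPS over vehicle on the right, on separate axes. On the left 5 intervals lie below 0 and that of Ccl22 lies above it, from 1.09 to 2.18. On the right all 6 lie above 0, and the value of Ccl22 rests on 4 vehicle counts.

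TPM allowed the genes to be set side by side. Summed over the 7 genes, the level was 21073, 29074 and 22492 TPM in the calycosin plus LPS libraries, 48457, 46461 and 46780.1 TPM in the LPS libraries, and 1140.3, 1032 and 1248 TPM in the vehicle libraries. Ccl3 made up 86.0 ± 3.26% of the sum in calycosin plus LPS cells, 83.1 ± 0.14% in LPS cells and 81.8 ± 9.02% in vehicle cells (SD, n = 3 each), with overlapping libraries. In calycosin plus LPS cells the order by mean TPM was Ccl3, Ccl4, Ccl5, Ccl9, Ccl22, Ccl6 and Ccl17. The libraries of Ccl4 and Ccl5 overlapped there, at 1617 ± 790.3 and 1605 ± 599 TPM. In LPS cells Ccl5, at 5101 ± 529.6 TPM, stood above Ccl4, at 2305 ± 293 TPM, with no overlap, and the last places were held by Ccl6 and Ccl17, whose libraries overlapped. These places of Ccl4 and Ccl5 are those of the deposited TPM. With counts per kilobase of exon, Ccl4 lay wholly above Ccl5 in calycosin plus LPS cells, at 5.11% or more of the sum over the 7 genes in each library against 4.65% or less, and the 2 genes overlapped in LPS cells, at 4.56% to 5.90% for Ccl4 against 5.75% to 6.97% for Ccl5. In vehicle cells Ccl4 and Ccl9, at 144 ± 75.8 and 55.2 ± 12.1 TPM, came after Ccl3 and overlapped each other, and Ccl5 was at 2.38 ± 1.87 TPM.

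The share of Ccl5 in the summed TPM was 6.49 ± 1.22% in calycosin plus LPS cells, 10.8 ± 0.926% in LPS cells and 0.217 ± 0.169% in vehicle cells. All calycosin plus LPS libraries were below all LPS libraries, as they were for Ccl9, at 0.854 ± 0.093% with calycosin plus LPS against 1.15 ± 0.2% with LPS. The share of Ccl22 was 0.155 ± 0.00755% with calycosin plus LPS against 0.0202 ± 0.00138% with LPS, and all its calycosin plus LPS libraries were above. In each of these 3 cases the exact two-sided permutation p was 0.1, the smallest that 3 libraries against 3 can give, and 0.154 after adjustment over 20 such tests. The shares of Ccl3, Ccl4 and Ccl6 overlapped between calycosin plus LPS and LPS cells (exact permutation p = 0.4, 0.2 and 0.6).

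**Figure D3:**
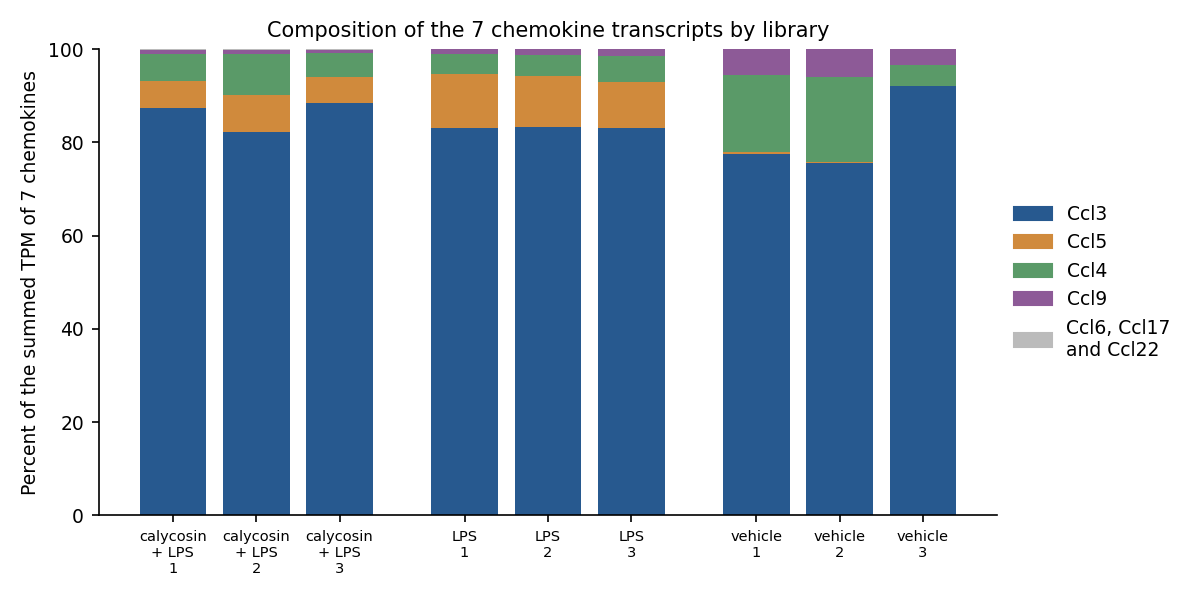
Percent of the summed TPM of the 7 chemokine genes that each gene took, in a stacked bar for each library. Ccl3 fills 75.6% to 92.2% of every bar, Ccl5 is widest in the LPS libraries, and the class of Ccl6, Ccl17 and Ccl22 is too thin to see.

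The proportion of Ccl4 to Ccl3 varied within groups. For every 100 TPM of Ccl3 there were 6.51, 10.6 and 5.64 TPM of Ccl4 in the calycosin plus LPS replicates, 5.22, 5.62 and 6.79 TPM in those with LPS, and 21.2, 23.9 and 4.87 TPM in those with vehicle. In each group the library with the lowest mitochondrial share had the highest proportion, and vehicle replicate 3, with the highest mitochondrial share of all, had the lowest of all. Ccl5 per 100 TPM of Ccl3 was 6.71, 9.59 and 6.45 TPM with calycosin plus LPS, 14.0, 13.1 and 11.8 TPM with LPS, and 0.453, 0.359 and 0.0292 TPM with vehicle. Vehicle replicate 3 was the lowest here too, while the calycosin plus LPS and LPS libraries did not overlap. The part of the mitochondrial share in these proportions was not tested.

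**Figure D4:**
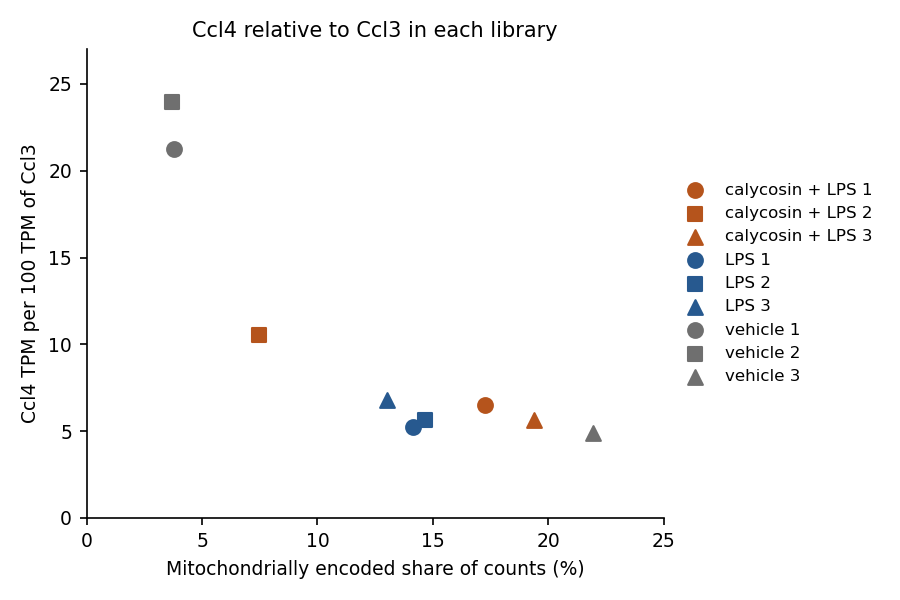
TPM of Ccl4 per 100 TPM of Ccl3 against the mitochondrially encoded share of counts, with colours for groups and symbols for replicates. Vehicle replicates 1 and 2 lie at 21.2 and 23.9, vehicle replicate 3 at 4.87, and all calycosin plus LPS and LPS libraries between 5.22 and 10.6.

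Receptors of the 7 ligands were scarce in these cells. Of 6 receptor genes listed, Ccr3, Ccr1l1 and the scavenging receptor Ackr2 had no counts in any library, and Ccr1 alone passed the filter. Ccr1 averaged 1.48 ± 0.145 CPM in calycosin plus LPS cells, 4.93 ± 0.614 CPM in LPS cells and 0.806 ± 0.138 CPM in vehicle cells. It was lower in calycosin plus LPS cells than in LPS cells (edgeR log2 fold change -1.73, adjusted p = 5.51e-04) and higher in LPS cells than in vehicle cells (2.60, adjusted p = 8.60e-06). Ccr4 gave 6 counts in the calycosin plus LPS libraries together, 8 in the LPS libraries and 8 in the vehicle libraries.

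Among 25 other chemokine genes 8 had no counts in any library and 12 were tested. Of these 12, LPS raised 11 over vehicle, against 27.3% of all genes tested. With calycosin plus LPS over LPS 5 were lower and 1 was higher, against 12.9% and 16.1% of all genes tested. Some of the 12 had 0 counts in all vehicle libraries and passed the filter through the other groups. The count of 11 is thus a description. The monocyte chemoattractant Ccl2 averaged 275 ± 43.5 CPM with calycosin plus LPS and 1805 ± 396 CPM with LPS (edgeR log2 fold change -2.72, adjusted p = 8.44e-05). Its chromosome 11 relatives Ccl12 and Ccl7 were lower by -3.95 and -3.57 (edgeR adjusted p = 1.49e-04 and 7.29e-05), and Ccl20, at 0.101 CPM with calycosin plus LPS and 0.617 CPM with LPS, by -2.62 (adjusted p = 0.0181). The Cxcr3 ligand Cxcl11 averaged 255 ± 124 CPM with calycosin plus LPS and 119 ± 17.2 CPM with LPS, and like Ccl22 was called higher (edgeR log2 fold change 1.09, adjusted p = 0.0298). The neutrophil chemoattractant Cxcl2 averaged 2088 ± 533 CPM with calycosin plus LPS and 3374 ± 94.7 CPM with LPS, and was lower (edgeR log2 fold change -0.69, adjusted p = 0.0244). The median over the 12 was -0.02, against 0.02 over all genes tested.

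Genes of the pathways that act on chemokine transcription were also followed. Of 10 genes for NF-kappaB subunits and IkappaB proteins 10 rose with LPS over vehicle, against 27.3% of all genes tested. In calycosin plus LPS cells against LPS cells 2 of the 10 were lower, 1 was higher and 7 were not called. That share was near the 29.1% of all genes tested that differed in either direction. The lower ones were Nfkb1, which encodes the p105 and p50 subunit, at 397 ± 30.4 against 803 ± 57.3 CPM (edgeR log2 fold change -1.02, adjusted p = 2.92e-04), and the nuclear IkappaB gene Nfkbiz (-1.13, adjusted p = 0.0117). The inhibitor gene Nfkbie was higher, at 91.9 ± 14.1 CPM with calycosin plus LPS against 39.4 ± 1.83 CPM with LPS (edgeR log2 fold change 1.22, adjusted p = 4.10e-04). Of 12 IRF and STAT genes 11 rose with LPS over vehicle, against 27.3% of all genes tested. With calycosin 3 were higher and 5 lower than with LPS alone, against 16.1% and 12.9% of all genes tested. Within this list the largest of these differences were those of Stat3 (-0.90, edgeR adjusted p = 3.87e-04), Irf7 (-0.86, 6.40e-04), Irf9 (-0.84, 5.89e-04) and Irf1 (0.80, 0.00205).

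AU-rich elements in the 3′ UTR let decay factors shorten the life of many cytokine mRNAs. The ATTTA pentamer occurred 5 times in the 409-base 3′ UTR of Ccl3, 2 times in the 302 bases of Ccl4, 4 times in the 943 bases of Ccl6, 5 times in the 2465 bases of Ccl9 and 2 times in the 1813 bases of Ccl22. Ccl5 and Ccl17, with 199 and 183 bases, had 0. The nonamer TTATTTATT was in 0 of the 7, and in 7.66% of 21020 genes, of which 65.2% had the pentamer. Among genes with a 3′ UTR no longer than the longest of the 7, 5.13% had the nonamer. At such shares 0 of 7 does not set these genes apart. Zfp36, which encodes the decay factor tristetraprolin, averaged 219 ± 7.75 CPM with calycosin plus LPS, 386 ± 39.3 CPM with LPS and 12.04 ± 2.8 CPM with vehicle. The RNase gene Zc3h12a averaged 71.9 ± 7.23 CPM with calycosin plus LPS, 189 ± 21.2 CPM with LPS and 7.37 ± 0.193 CPM with vehicle. Both were lower with calycosin than with LPS alone (edgeR log2 fold change -0.82, adjusted p = 0.00489, and -1.40, adjusted p = 1.05e-04). The 6 genes listed here act on mRNA decay or stability, and not all encode decay factors, Elavl1 being the exception. Of these 6 genes 3 were lower, among them also Zfp36l2, and 1, Khsrp, was higher in that comparison. With LPS over vehicle 2 of the 6 were higher and 3 lower. Over all genes tested 29.1% differed in either direction with calycosin plus LPS over LPS, and 56.3% with LPS over vehicle.

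Genes whose products cut or carry chemokines also moved in both directions. Of 6 listed 4 were tested, and in calycosin plus LPS cells against LPS cells 2 were lower and 2 higher. The gelatinase gene Mmp9 was lower, at 20.9 ± 0.214 against 78.6 ± 15.1 CPM (edgeR log2 fold change -1.91, adjusted p = 8.35e-05), as was Srgn, which encodes the granule proteoglycan serglycin (-0.94, adjusted p = 0.0469). The cell surface proteoglycan genes Sdc1 (1.15, edgeR adjusted p = 0.00725) and Sdc4 (0.57, adjusted p = 0.0373) were higher. With LPS over vehicle 3 of the 4 were higher, and Sdc1 was lower (edgeR log2 fold change -2.32, adjusted p = 3.24e-05). The shares of all genes tested that differed in either direction were 29.1% for calycosin plus LPS over LPS and 56.3% for LPS over vehicle.

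Neighbouring genes were counted within 100 kb of the 7. On chromosome 11 there were 18 others, of which 7 were tested. Of these 7, 5 were higher with LPS over vehicle, against 27.3% of all genes tested. With calycosin plus LPS over LPS 3 were lower and 1 higher, against 12.9% and 16.1% of all genes tested. Heatr9, which lies downstream of Ccl5 with 3602 bases between the genes, averaged 6.64 ± 1.07 CPM in calycosin plus LPS cells, 10.7 ± 0.46 CPM in LPS cells and 0.00685 CPM in vehicle cells, the last under the floor. Heatr9 thus passed the filter through the groups given LPS. It was called higher with LPS (edgeR adjusted p = 4.65e-08) and lower with calycosin than with LPS alone (log2 fold change -0.69, adjusted p = 0.0319). Wfdc17, which encodes a protein with a whey acidic protein domain and lies beyond Ccl4, averaged 1.16 ± 0.427 CPM in calycosin plus LPS cells, 8.35 ± 0.608 CPM in LPS cells and 0.326 ± 0.111 CPM in vehicle cells. Its fall with calycosin against LPS alone was -2.83 on the log2 scale (edgeR adjusted p = 3.23e-04), while the metalloproteinase gene Mmp28 was higher (1.42, adjusted p = 0.00111). Taf15, an RNA-binding protein gene, was lower in calycosin plus LPS cells than in LPS cells (edgeR log2 fold change -0.57, adjusted p = 0.0121) and higher with LPS than with vehicle (1.15, adjusted p = 7.35e-05). Heatr6 was higher with LPS (0.67, edgeR adjusted p = 2.66e-04) and not called with calycosin plus LPS against LPS (0.07, adjusted p = 0.641), and 1700020L24Rik was called in neither comparison, with 1.04 for calycosin plus LPS over LPS (edgeR adjusted p = 0.0834). The noncoding E230016K23Rik was higher with LPS (1.81, edgeR adjusted p = 0.0403) and not called with calycosin plus LPS against LPS (-0.70, adjusted p = 0.430).

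On chromosome 8 there were 13 other genes near Ccl22 and Ccl17, of which 7 were tested. With LPS over vehicle 3 were higher, the membrane-bound chemokine gene Cx3cl1 (edgeR log2 fold change 3.27, adjusted p = 0.0195), Rspry1 (0.80, adjusted p = 0.00183) and Arl2bp (0.79, adjusted p = 0.0189), and 1, Coq9, was lower. Ciapin1 and Polr2c were called in neither comparison. Over all genes tested 27.3% were higher and 28.9% lower with LPS over vehicle. With calycosin plus LPS over LPS 2 of the 7 were higher and 0 lower, near the 29.1% of all genes tested that differed in either direction. The 2 higher were Dok4, an adaptor of receptor tyrosine kinases, at 6.43 ± 1.13 against 2.37 ± 0.429 CPM (edgeR log2 fold change 1.44, adjusted p = 0.00117), and Coq9 (0.49, adjusted p = 0.0348). Cx3cl1, which lies between Ccl22 and Ccl17, averaged 0.652 ± 0.121 CPM in calycosin plus LPS cells and 0.408 ± 0.444 CPM in LPS cells and was not called (log2 fold change 0.67, edgeR adjusted p = 0.542).

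**Figure D5:**
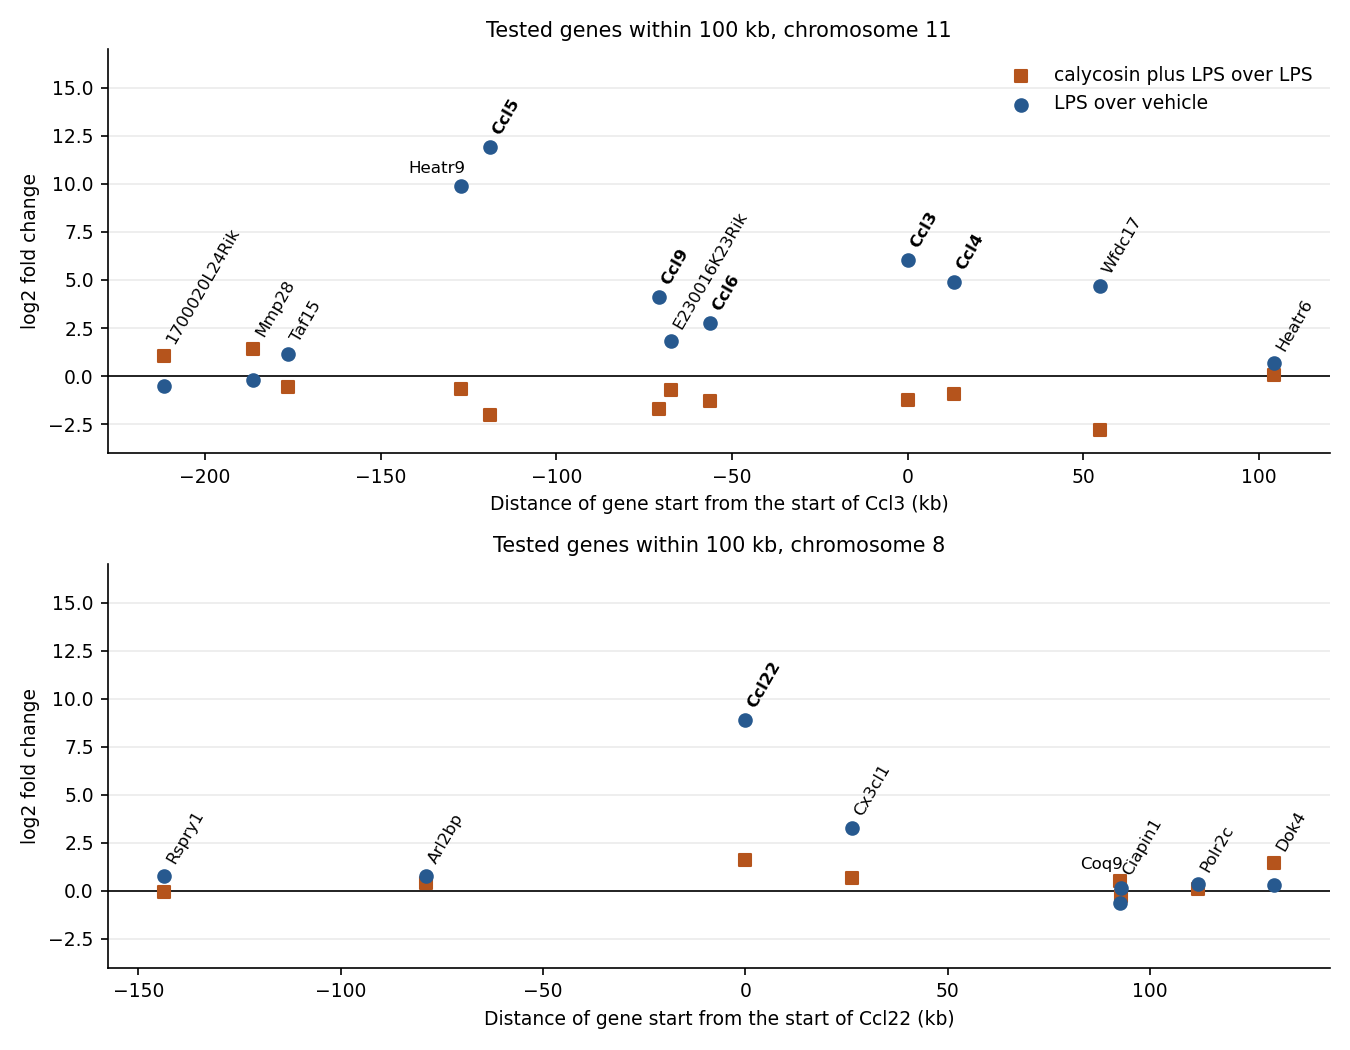
Log2 fold change of the tested genes within 100 kb of the chemokine genes, against the distance of each gene's start from that of Ccl3 (top, chromosome 11) or Ccl22 (bottom, chromosome 8). Squares give calycosin plus LPS over LPS and circles LPS over vehicle, and names in bold are members of the 7. Heatr9 and Ccl5 have the highest circles on chromosome 11, and Ccl22, at 1.63, has the highest square on chromosome 8.

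The genes most like each chemokine gene over the 9 libraries, by Pearson correlation of log2 CPM among genes that reach 10 CPM in a group, differed from one to the next. For Ccl3 they were Tnip3, an inhibitor of NF-kappaB signalling (r = 0.999), Samd9l and Pnp2, and for Ccl4 Rhoc, Oas1g and Uba7. For Ccl5 they were Gpat3, Nod1 and Axl, for Ccl9 Lyn, Hcls1 and Lima1, and for Ccl6 Thap6 (r = 0.992), Lrrfip1 and Ppp2r5e. For Ccl22 they were the prion protein gene Prnp (r = 0.997), the cytokine signalling inhibitor gene Socs1 and Rassf4. Between the chemokine genes r was lowest for Ccl6 with Ccl22 (0.722) and highest for Ccl4 with Ccl5 (0.996). These values describe 9 points that share their libraries and fall into 3 groups, and no p is given.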

How the data were processed

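Polyadenylated RNA of 9 RAW 264.7 cultures in 3 groups was measured. The authors deposited unscaled gene counts for 51826 Ensembl genes, with no normalisation seen in the values. TPM values, scaled for length and depth by the authors, were deposited for 51799 genes. Trimmomatic 0.36, HISAT2 2.0, StringTie 1.3.3b and build mm10 are named in the submitters' processing notes. Of the read counter, strandedness and multimapped reads nothing is given in the sources used here. Of the gene identifiers 51633 were found in GENCODE M21 (GRCm38).

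The genes, the lists of related genes and the tests were chosen with earlier results of these data known. Counts were filtered with filterByExpr (14458 genes kept), scaled by TMM (factors 0.786 to 1.42) and fitted with edgeR 4.0.16 in R 4.3.3, with a term per group over all 9 libraries. Pairs of groups were compared by the two-sided quasi-likelihood F test with Benjamini-Hochberg adjustment over all genes tested and a threshold of 0.05. Each SE came from the F statistic of its fold change. P values measure the spread between cultures of one line. A count of 0 was read as up to 3 counts, 0.0602 to 0.137 CPM depending on the library, and such floors cover counting error only. Shares in the summed TPM were compared with exact permutation tests. limma 3.58.1 on log2(TPM + 1) and log2(TPM + 0.1), DESeq2 1.42.0 and leaving out single libraries were alternatives, and the fitting script was tested on simulated data.

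Named were the 7 genes in full, up to 4 called genes with the largest change per list (the 2 most abundant where none was called), the 3 genes most correlated with each tested member, and the tested neighbours within 100 kb. Cxcl2 and Cxcl11 fall outside this rule and were named after their values were seen. Also outside it are Elavl1 and the genes named for few or absent counts, Ccr3, Ccr1l1, Ackr2, Ccr4, Mertk, Ms4a1 and Ly6g. Replicate numbers in the labels were checked for pairing, and over 9 pairs the correlation of deviations was -0.173 to 0.364, so the numbers were not taken as pairs. Promoter windows came from RefSeq. Some genes of the lists are not reported here.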

Additional observations from a re-analysis of the deposited data

How the results depend on the processing

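The direction of every fold change of the 6 tested genes was kept in all alternatives run. All 118 values for LPS over vehicle kept their side of the threshold, as did 90 of 118 for calycosin plus LPS over LPS and 109 of 117 for calycosin plus LPS over vehicle. Limits lie in the 3 cultures per group, in the 2 libraries with a deviating mitochondrial share, in the counts of under 30 per library behind Ccl6 and Ccl17, and in the absence of a group with calycosin alone.

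For calycosin plus LPS over LPS, limma on log2(TPM + 1) gave -0.93 for Ccl3 and -0.61 for Ccl4, with or without a filter, and neither passed. On log2(TPM + 0.1) Ccl4 (-0.61) and Ccl5 (-1.72) did not pass, nor without a filter did Ccl5 (-1.72) and Ccl6 (-0.47). The genes called lower were Ccl5 and Ccl9 in limma on log2(TPM + 1), Ccl3 and Ccl9 on log2(TPM + 0.1), and Ccl9 and Ccl17 without a filter, 2 in each setting. Ccl17 entered the unfiltered fit through the LPS libraries alone, so its call is a description. EdgeR called 5, with Ccl17 not tested, and the filtered limma fits did not test Ccl6 and Ccl17. With no filter on counts Ccl6 was at -1.24, and without both libraries that stood apart at -1.03, in neither case called. For calycosin plus LPS over vehicle Ccl6 was not called with no filter (1.48), with the mitochondrial share as a covariate (1.20) or in unfiltered limma (0.22). With the replicate number as a block Ccl6 was at -1.31 for calycosin plus LPS over LPS (adjusted p = 0.0892) and at 1.47 for calycosin plus LPS over vehicle (adjusted p = 0.0590), and the block changed no other call of the 6 genes. Same-numbered libraries correlated best with each other in 2 of 9 pairs.

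Leaving out single libraries gave, for calycosin plus LPS over LPS, -1.35 to -1.19 for Ccl3, -1.14 to -0.79 for Ccl4 and -1.54 to -1.005 for Ccl6, and 2 to 5 genes called lower. For calycosin plus LPS over vehicle Ccl6 ranged between 1.24 and 1.73, and 4 of 9 omissions ended its call. All genes called lower with calycosin numbered 1224 to 2576 in these fits, with the lowest without calycosin plus LPS replicate 1, against 1871.

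The counts over all genes for calycosin plus LPS over LPS were 1345 higher and 286 lower with limma on log2(TPM + 1), against 2333 and 1871 in edgeR, 288 lower on log2(TPM + 0.1), 897 higher and 300 lower without a filter, and 3307 lower with the mitochondrial covariate. For LPS over vehicle they were 1342 higher and 6432 lower, 1342 and 6389, and 1503 higher in the 3 limma settings, against 3954 and 4180. For calycosin plus LPS over vehicle they were 1331, 1317 and 1412 higher, against 3672. On log2(TPM + 1) the median of all genes lay at 0.30 for calycosin plus LPS over LPS and at -0.72 for LPS over vehicle, against 0.02 and -0.07 in edgeR. With counts per kilobase in place of TPM, Ccl3 took 87.3% in LPS cells, Ccl5 3.82% in calycosin plus LPS cells and 6.40% in LPS cells, and Ccl6 0.0120% in vehicle cells. The cause of these shifts was not tested.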

Other observations

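Markers of other cell types moved in both directions beside the chemokine genes. The endothelial cadherin gene Cdh5 averaged 0.671 ± 0.0922 CPM in calycosin plus LPS cells, 4.76 ± 0.874 CPM in LPS cells and 0.354 ± 0.205 CPM in vehicle cells, and was lower with calycosin than with LPS alone (edgeR log2 fold change -2.82, adjusted p = 0.00108). Zbtb46, a transcription factor gene of classical dendritic cells, averaged 0.867 ± 0.181 CPM in calycosin plus LPS cells, 0.113 ± 0.0446 CPM in LPS cells and 0.505 ± 0.0792 CPM in vehicle cells. It was higher with calycosin than with LPS alone (edgeR log2 fold change 2.89, adjusted p = 0.00130). Of the macrophage markers, Cd14, the co-receptor that hands LPS to TLR4, averaged 505 ± 70.8 CPM with calycosin plus LPS, 1248 ± 54.9 CPM with LPS and 513 ± 68.1 CPM with vehicle, and was lower with calycosin than with LPS alone (edgeR log2 fold change -1.30, adjusted p = 3.82e-04). The lysozyme gene Lyz2 averaged 798 ± 49.7 CPM with calycosin plus LPS, 1193 ± 58.8 CPM with LPS and 2560.0 ± 339 CPM with vehicle. Its log2 fold change was -0.58 for calycosin plus LPS over LPS (edgeR adjusted p = 0.0137) and -1.10 for LPS over vehicle (adjusted p = 1.30e-04). The other 5 macrophage markers tested were not called between calycosin plus LPS and LPS cells.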
